A study of Mus musculus with 6 samples.

Results

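The machinery that turns a Wnt signal into beta-catenin and Tcf activity was followed here through 10 genes: the co-receptor Lrp6, the destruction complex genes Apc, Axin1, Gsk3b and Csnk1a1, beta-catenin itself (Ctnnb1), the transcription factors Tcf7l2, Tcf7 and Lef1, and E-cadherin (Cdh1). The genes were named for their place in the pathway, and their probe sets were found by symbol. All probe sets, which are groups of short probes read as 1 value, were taken where the platform annotation gave 1 of these symbols and no other. That gave 20 of the 22690 probe sets on the array, for 9 of the 10 genes. No probe set of the annotation used here carried the symbol Tcf7, whose expression was therefore not analysed here.

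RNA came from the proximal colon of 6 mice, each measured on its own array: 3 wild-type mice (genotype label wt) and 3 mice heterozygous for an Mthfd1 gene trap (genotype label Mthfd1/+). All were 8 weeks old, had been weaned at 3 weeks and had then eaten the AIN-93G control diet for 5 weeks. No Apc allele and no treatment is named in the labels of any of the 6 mice. The series concerns Mthfd1 as a modifier of intestinal tumours, and its arrays compare the proximal colon of untreated mice of both genotypes. The labels name no strain, sex or trap site, and the tissue was a piece of gut wall, so that less RNA per cell and fewer cells of a type cannot be told apart.

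In this pathway the scaffold Axin1, with Apc, holds beta-catenin beside the kinases Csnk1a1 and Gsk3b, which phosphorylate it and so mark it for destruction. A Wnt ligand bound to a Frizzled receptor and Lrp6 halts that step, and beta-catenin enters the nucleus, where Tcf7l2, Tcf7 and Lef1 carry it to target genes. A separate pool of beta-catenin ties Cdh1 to the actin cytoskeleton at the junctions between epithelial cells. In the gut the pathway maintains the dividing cells of the crypt, and loss of Apc is the common first step of intestinal tumours. Much of this control acts on protein, which these arrays do not measure.

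The labels were checked on the targeted gene first. Mthfd1, an enzyme of folate metabolism, read 949.9, 838.6 and 881.4 in wild-type and 453.1, 509.6 and 549.4 in heterozygous colon at probe set 1415916_a_at. Heterozygous values were lower at all 3 of its probe sets, without overlap. At the 2 that were tested the log2 differences were -0.80 and -0.99, and limma adjusted p = 0.125 and 0.116, so the targeted gene itself did not pass over all probe sets. Signal correlated between any pair of arrays at r = 0.971 to 0.982 across probe sets, which are not independent replicates. The epithelial markers were present on every array, with all 15 past the filter on low values (a mean signal of 95.8, the 40th percentile). They included Lgals4 (17363.6 to 19347.7), Krt8 (17275.8 to 19892.2) and the colon enzyme Car1 (15442.6 to 19083.6). Ileal genes differed widely between arrays of both genotypes: Fabp6, an ileal bile acid binding protein, read 1316.8, 5661.9 and 93.5 in wild-type and 382.3, 5621.6 and 727.8 in heterozygous colon. Over 13576 tested probe sets, limma called 0 at an adjusted p under 0.05 (0%), and 771 (5.68%) had an unadjusted p under 0.05. With heterozygous replicate 1 left out the adjusted count was 38, and with wild-type replicate 3 left out it was 2, with no member among them. The unadjusted count was 443 once heterozygous replicate 3 was left out.

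No member probe set that was tested passed the threshold for a difference between the genotypes. Of the 20 member probe sets, 14 passed the filter, from 8 genes, and 0 of these 14 had a limma adjusted p under 0.05 (0.912 to 0.999) or an unadjusted p under 0.05 (the smallest was 0.0986, for Ctnnb1). Heterozygous means were higher for 10 and lower for 4, where 50.7% of all tested probe sets were higher. The median log2 difference was 0.05 over the 14 and 0.00 over all tested probe sets. Groups did not overlap at 2 of the 14, 1 each of Ctnnb1 and Tcf7l2, against 10.4% of all tested probe sets (5.27% with heterozygous higher, as here, and 5.10% lower). Without wild-type replicate 2 the median was 0.13 and 6 of the 14 did not overlap, at a share of 18.5% over all probe sets. Without heterozygous replicate 3 the median was 0.01 and 5 did not overlap (16.5% over all).

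**Figure D1:**
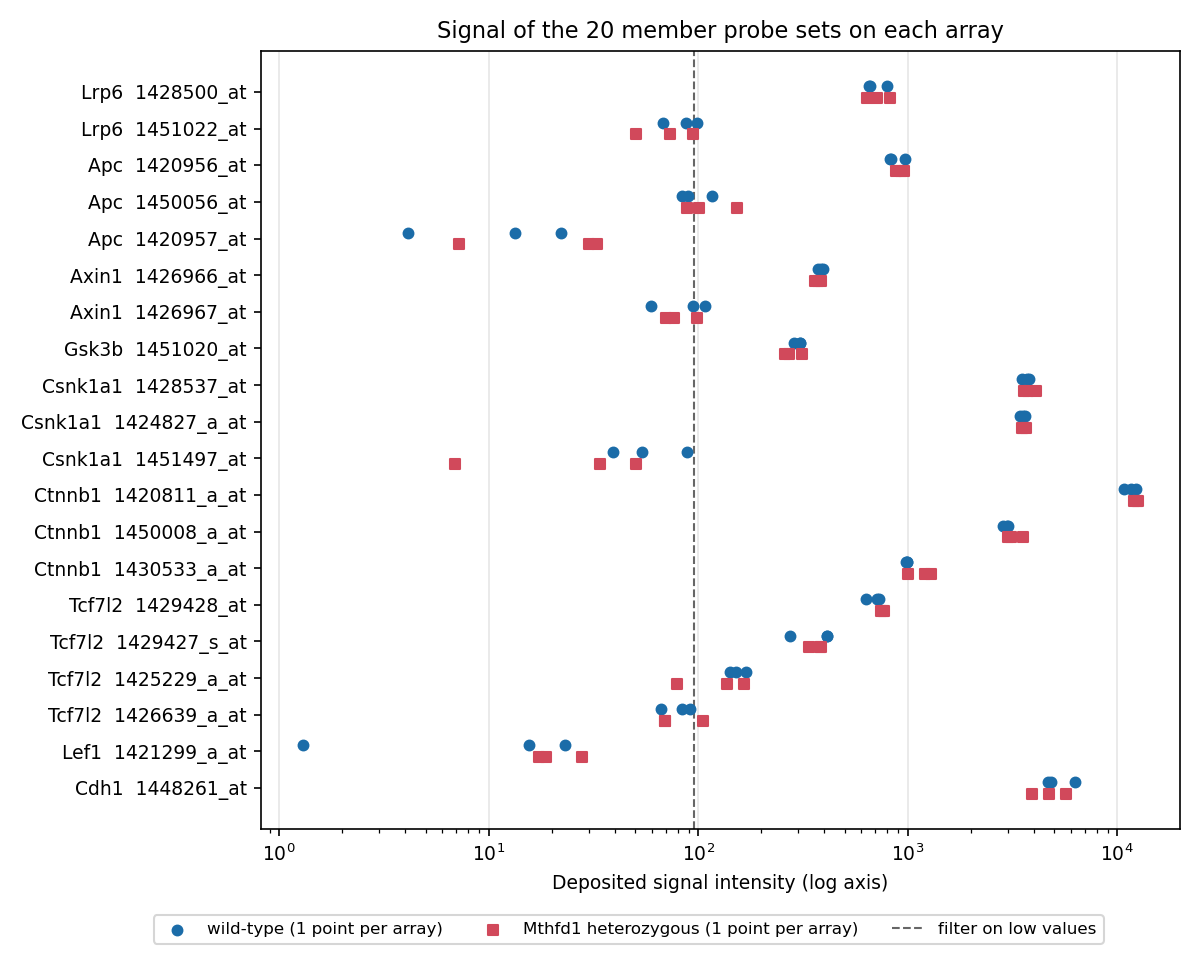
Deposited signal (log axis) of each of the 20 member probe sets, with 1 point per array for 3 wild-type (circles) and 3 heterozygous (squares) mice; the dashed line is the filter at 95.8. The genotypes overlap at 12 of the 14 probe sets past the filter, and Lef1, 1 of the 6 below it, runs from 1.3 to 28.0.

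The intervals show what sizes of difference these arrays leave possible. The 95% interval of the genotype difference lay within 1.5-fold in both directions for 12 of the 14 tested probe sets. The exceptions were 1 probe set of Apc and 1 of Tcf7l2. The spread between arrays of a genotype (pooled SD of log2 values) had a median of 0.10 over the 14 and of 0.18 over all tested probe sets. The absolute log2 difference had a median of 0.09 and 0.11, respectively. These medians were not matched for signal, with which the spread can change, so the lower spread is not shown to be a trait of these genes.

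**Figure D2:**
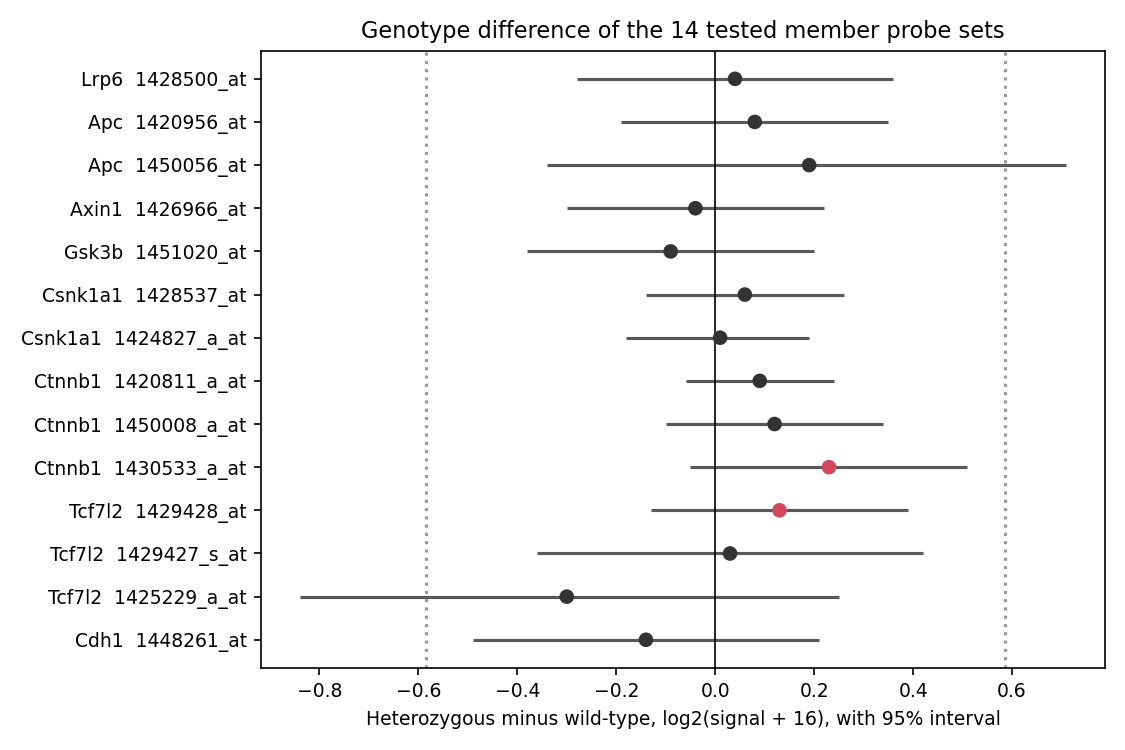
Heterozygous minus wild-type difference in mean log2(signal + 16) for the 14 tested member probe sets, with the 95% interval from limma (3 arrays per genotype); dotted lines mark 1.5-fold, and coloured points are probe sets whose groups do not overlap. Every interval includes 0, and those of Apc 1450056_at and Tcf7l2 1425229_a_at reach past 1.5-fold.

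Lrp6, the receptor that joins Frizzled in binding Wnt, was measured by 2 probe sets. At 1428500_at it read 655.8, 796.8 and 660.2 in wild-type and 640.0, 711.8 and 824.5 in heterozygous colon. The highest array of each genotype stood above the other 4 arrays, and the groups overlapped. The means were 704 ± 80.2 and 725 ± 93.0 (SD, n = 3 each), a log2 difference of 0.04 (SE 0.14, limma adjusted p = 0.986). At 1451022_at, below the filter, signal ran from 50.6 to 98.7 and the log2 difference was -0.20, of opposite sign. The sign at 1428500_at also turned when wild-type replicate 1 (-0.01), wild-type replicate 3 (-0.0026) or heterozygous replicate 3 (-0.05) was left out.

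Apc, the tumour suppressor of the destruction complex, was measured by 3 probe sets. At 1420956_at the wild-type arrays read 818.5, 972.5 and 830.6 and the heterozygous arrays 880.8, 925.9 and 957.7. All 3 heterozygous values fell between the lowest and the highest wild-type array. The means were 874 ± 85.6 and 921 ± 38.6 (SD, n = 3 each; log2 difference 0.08, SE 0.12), with an interval of 0.877 to 1.27 times wild-type. At 1450056_at, which passed the filter at a mean of 105, Apc read 83.6, 116.1 and 89.6 against 88.5, 100.5 and 152.5 (log2 0.19, SE 0.23). The high value there was heterozygous replicate 3, and without it the difference was -0.02. At 1420957_at Apc read 4.1 to 33.0, below the filter. Neither tested probe set showed Apc lower in heterozygous colon with all 6 arrays.

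Axin1, the scaffold of the complex, gave some of the most even values among the members. At 1426966_at it read 386.3, 372.4 and 394.2 in wild-type and 372.4, 361.8 and 384.0 in heterozygous colon (384 ± 11 and 373 ± 11.1, SD, n = 3 each). The highest array was 1.09 times the lowest, and the groups overlapped. The log2 difference was -0.04 (SE 0.11), and the interval ran from 0.812 to 1.16 times wild-type. At 1426967_at, just below the filter at a mean of 84.4, it ran from 59.5 to 107.6 (log2 -0.06).

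Gsk3b, the kinase that phosphorylates beta-catenin after Csnk1a1 has primed it, had 1 probe set. It read 286.6, 305.7 and 307.3 in wild-type and 258.7, 271.2 and 312.9 in heterozygous colon. The lowest 2 arrays were heterozygous and so was the highest. The log2 difference was -0.09 (SE 0.13, limma adjusted p = 0.961).

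Csnk1a1, the priming kinase, was the steadiest member at 1424827_a_at, where the highest array was 1.06 times the lowest. Wild-type arrays read 3559.5, 3450.8 and 3629.5 and heterozygous arrays 3508.4, 3647.5 and 3540.5, interleaved between the genotypes. The log2 difference was 0.01 (SE 0.08), with an interval of 0.885 to 1.14 times wild-type. At 1428537_at the values were 3771.9, 3689.4 and 3515.5 against 3588.7, 3759.2 and 4114.6 (log2 0.06, SE 0.09), and the highest was heterozygous replicate 3. At 1451497_at, below the filter, Csnk1a1 read 54.0, 88.1 and 39.0 against 6.9, 33.9 and 50.6, with overlapping groups and a log2 difference of -0.80. Averaging all 3 probe sets gave a log2 difference of -0.24, which carries that dim probe set.

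Ctnnb1, beta-catenin itself, had a higher heterozygous mean at all 3 of its probe sets, and at none of them did the difference pass. At 1420811_a_at it read 10809.2, 12266.0 and 11685.8 in wild-type and 12393.3, 12558.3 and 12007.6 in heterozygous colon. The groups overlapped there because heterozygous replicate 3 lay below wild-type replicate 2. The means were 11587 ± 733 and 12320 ± 283 (SD, n = 3 each; log2 0.09, SE 0.07).

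At 1450008_a_at Ctnnb1 read 2852.0, 3008.4 and 2989.3 against 2998.6, 3098.6 and 3561.0 (log2 0.12, SE 0.10). The groups again overlapped by 1 array, heterozygous replicate 1. At 1430533_a_at the wild-type arrays were nearly equal, at 991.7, 990.2 and 985.3, and the heterozygous arrays read 1203.0, 1006.9 and 1289.2. Here the groups did not overlap (log2 0.23, SE 0.12; exact two-sided permutation p = 0.1, the smallest that 3 against 3 can give; limma adjusted p = 0.912). The 95% intervals of the 3 probe sets reached up to 1.18, 1.27 and 1.42 times wild-type.

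Tcf7l2, a Tcf factor prominent in gut epithelium, had 4 probe sets whose differences did not share a sign. At 1429428_at it read 713.0, 732.8 and 634.4 in wild-type and 746.4, 760.1 and 767.5 in heterozygous colon. The groups did not overlap, though the gap between wild-type replicate 2 and heterozygous replicate 1 was narrow (log2 0.13, SE 0.11; exact two-sided permutation p = 0.1; limma adjusted p = 0.937). At 1429427_s_at it read 409.9, 411.8 and 273.2 against 384.6, 337.8 and 382.0 (log2 0.03, SE 0.17), with wild-type replicate 3 standing below the other arrays. Without that array the difference was -0.15. At 1425229_a_at it read 169.7, 141.4 and 151.6 against 78.8, 137.6 and 164.9 (log2 -0.30, SE 0.24), and the low value was heterozygous replicate 1. The fourth, 1426639_a_at, lay below the filter at 66.6 to 105.1.

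Because Ctnnb1 and Tcf7l2 hold the probe sets without overlap, the 250 bases before annotated starts of both are shown, from RefSeq on GRCm38.p6, written along the gene's own strand. The Ctnnb1 start is the upstream one of 2 (chr9:120933150-120933399, plus strand). The Tcf7l2 starts lie 154 kb apart (chr19:55741560-55741809 and chr19:55895071-55895320, plus strand). Capitals mark CCAAT or TATAAA on either strand.
Ctnnb1 upstream start: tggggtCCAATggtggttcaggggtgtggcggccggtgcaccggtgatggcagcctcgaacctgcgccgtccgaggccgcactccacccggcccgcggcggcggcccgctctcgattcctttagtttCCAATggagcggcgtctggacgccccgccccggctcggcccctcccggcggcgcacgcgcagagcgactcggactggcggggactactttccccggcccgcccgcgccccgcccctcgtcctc
Tcf7l2 first start: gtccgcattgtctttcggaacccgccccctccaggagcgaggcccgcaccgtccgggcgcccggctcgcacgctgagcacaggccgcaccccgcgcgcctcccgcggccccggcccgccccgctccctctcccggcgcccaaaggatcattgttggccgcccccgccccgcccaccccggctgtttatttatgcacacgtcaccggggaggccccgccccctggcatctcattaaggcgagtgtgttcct
Tcf7l2 second start: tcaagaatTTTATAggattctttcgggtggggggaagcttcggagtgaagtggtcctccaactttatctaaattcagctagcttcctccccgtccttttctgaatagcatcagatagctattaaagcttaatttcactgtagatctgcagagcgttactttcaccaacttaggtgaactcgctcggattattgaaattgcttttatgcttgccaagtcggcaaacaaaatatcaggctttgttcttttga
Windows were found for 5 of the 10 genes, 11 windows in all. The Tcf/Lef core, searched as CTTTGAT or CTTTGAA on both strands, was in 0 of the 11 and in 7.48% of 32851 such windows of the table. TATAAA was in 5 of 11 (12.4% of all) and CCAAT in 2 of 11 (33.8% of all), and no pair of these motifs shares bases in the sequences shown. The 5 with TATAAA include the downstream start of Ctnnb1, which is not shown. Their matches lay at offsets from -242 to -8 from the start. Some windows of Ctnnb1 and of Lef1 overlap each other, so the 11 are not independent, and no enrichment was tested. These matches describe letters only, and the probe sets were not placed on the transcripts of either start.

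Lef1, a Tcf-family factor of lymphocytes and of activated Wnt signalling, had 1 probe set and it lay far below the filter. It read 15.5, 1.3 and 23.2 in wild-type and 18.8, 28.0 and 17.4 in heterozygous colon. The groups overlapped, and the files hold no detection call, so it is not known whether the probe set was above background. T-cell markers are given beside it, since T cells express this gene. Of 11 measured T-cell genes 4 passed the filter, and their summed signal was 556 to 633 in wild-type and 633 to 1089 in heterozygous colon, whereas the other 7, Cd3e among them at 33.4 to 88.1, were below the filter. Cd3d, 1 of the 4 that passed, had a wild-type mean of 92.9, under the filter, and a heterozygous mean of 204. The part of T cells in the Lef1 values was not tested.

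Cdh1, which joins epithelial cells and holds beta-catenin at the membrane, varied more between animals than most members. It read 4674.9, 6254.1 and 4828.2 in wild-type and 4703.2, 5720.3 and 3913.8 in heterozygous colon. Replicate 2 was the highest array of each genotype, and heterozygous replicate 3 was the lowest of all. The means were 5252 ± 871 and 4779 ± 906 (SD, n = 3 each; log2 -0.14, SE 0.15, limma adjusted p = 0.947). Ileal genes were also highest on both of those replicate 2 arrays: their centred mean log2 level was 1.51 and 1.04 there, and from -1.58 to 0.38 on the other 4 arrays. Epithelial markers stayed between -0.14 and 0.10 on the same scale over all 6 arrays. Whether the ileal genes have a part in the Cdh1 values was not tested.

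The arrays did not share evenly in the extremes. Heterozygous replicate 3 was the highest array for 7 of the 14 tested probe sets, those of Lrp6, Gsk3b, 1 of Apc, 1 of Csnk1a1, 2 of Ctnnb1 and 1 of Tcf7l2; over all tested probe sets it was highest for 20.4%. Heterozygous replicate 1 was highest for 0 of the 14 (14.7% over all). Heterozygous replicate 3 also had the highest T-cell score, 0.60, against -0.35 to 0.42 on the other 5 arrays. That score averages the 4 T-cell genes past the filter, which Cd3d passed only through its heterozygous mean (204, against 92.9 in wild-type). A high score on a heterozygous array is therefore in part built in by the filter. The proliferation score of heterozygous replicate 3 was 0.26, within the range of the others (-0.46 to 0.30). The part of these markers in the members' values was not tested.

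**Figure D3:**
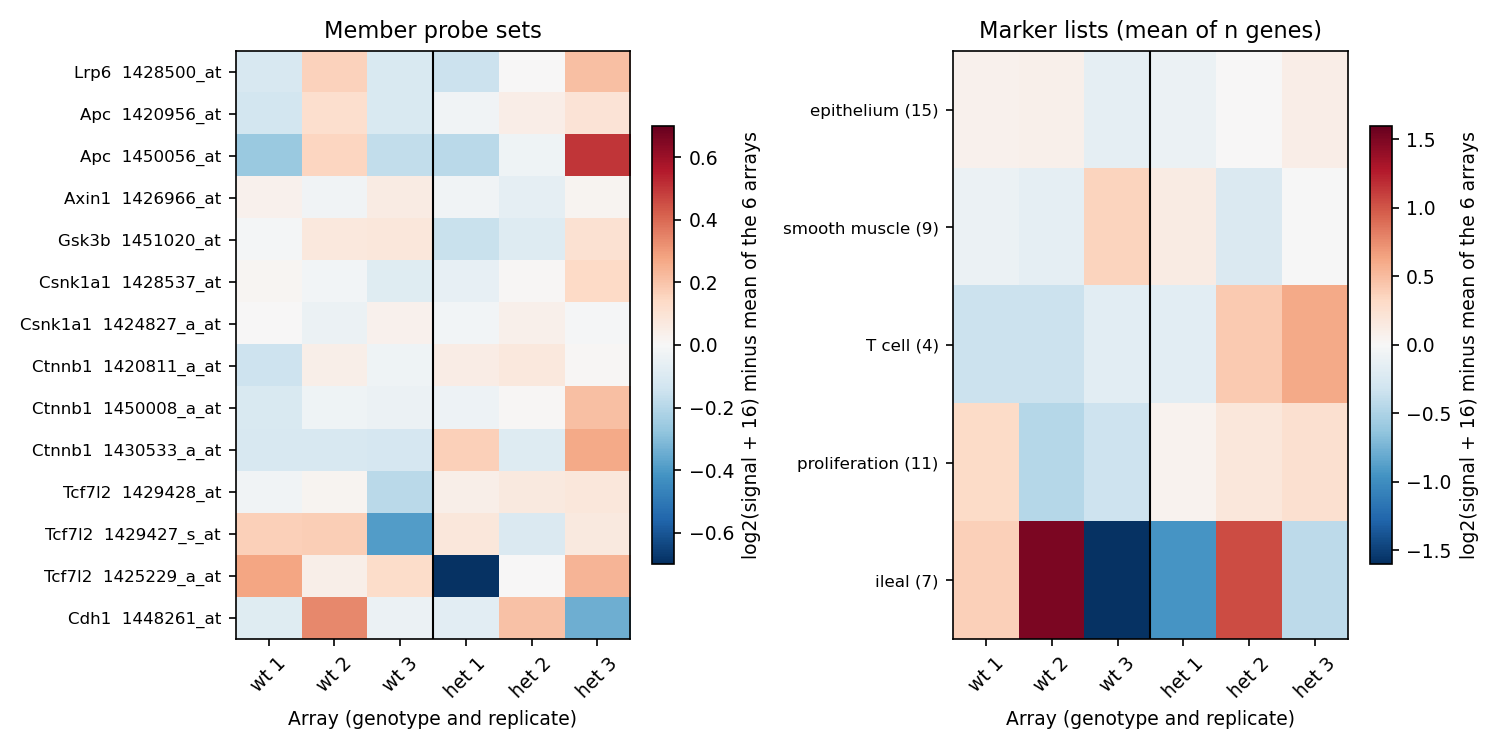
Left, log2(signal + 16) of each tested member probe set on each array minus its mean over the 6 arrays; right, the same averaged over the marker genes of 5 lists (gene number in brackets), on a wider colour scale. Heterozygous replicate 3 is the highest array for 7 of the 14 member probe sets, and Cdh1 is highest on the replicate 2 arrays, where the ileal genes read 1.51 and 1.04.

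Probe sets of 1 gene gave the same direction for 3 of the 4 member genes with more than 1 tested probe set (Apc, Csnk1a1 and Ctnnb1, not Tcf7l2). Over all 2852 such genes the share was 53.2%. The sign of Csnk1a1 1424827_a_at rests on a difference of 0.01 (SE 0.08) and reversed under 3 alternatives. That of Apc 1450056_at turned to -0.02 without heterozygous replicate 3. The signs of the 3 Ctnnb1 probe sets did not reverse. The genotype difference was compared between probe sets of a gene in 8 pairs, using the difference of their log2 values on each array. The widest gap was that between Tcf7l2 1429428_at and 1425229_a_at, 0.43, and it did not pass (exact permutation p = 0.2; adjusted over 8 pairs, p = 0.8).

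Agreement across the 6 arrays was highest for Apc, where 1420956_at and 1450056_at both read highest in wild-type replicate 2 or heterozygous replicate 3. They correlated at Pearson's r = 0.81 (exact permutation p = 0.0375, adjusted over 8 pairs 0.239) and Spearman's rho = 0.89 (exact permutation p = 0.0333, adjusted 0.267). Without the 2 arrays farthest from the median, r was 0.77. For Ctnnb1, 1450008_a_at and 1430533_a_at had r = 0.74 and rho = 0.60 (exact permutation p = 0.0597 and 0.242, adjusted 0.239 and 0.644), and r = -0.24 without wild-type replicate 1 and heterozygous replicate 3, so that relation rests on those arrays. For Tcf7l2, 1429428_at and 1429427_s_at had r = 0.70 but rho = -0.03 (exact permutation p = 0.158 and 1, adjusted 0.422 and 1), with r = -0.86 without wild-type replicate 3 and heterozygous replicate 3. The other 5 pairs had r from -0.22 to 0.37. No pair passed after adjustment.

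The rest of the pathway was described by 7 lists. Outside the members they named 162 genes, of which 144 were measured and 91 passed the filter. limma called 0 of the 91 (0% of the 8243 tested genes), and 3 had an unadjusted p under 0.05 (5.34% over all genes). Heterozygous means were higher for 45 and lower for 46 (51.5% of all tested genes were higher), with a median log2 difference of 0.00. Groups did not overlap for 7 (10.7% over all genes), among them Sfrp4, which passed the filter only through its wild-type mean.

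Wnt ligands and the genes that secrete them, listed together with the R-spondin genes, mostly lay below the filter: 20 of 23 measured, where 33.5% of all genes did. Those above it were Wnt6 (131 ± 15.1 and 107 ± 14.8, SD, n = 3 each; log2 -0.25), Wnt4 (128 ± 4.35 and 117 ± 22.2; log2 -0.13) and Wls, the carrier that brings Wnt proteins to the cell surface (751 ± 116 and 765 ± 113; log2 0.03). Their groups overlapped. Other tested probe sets of Wls had log2 differences of -0.23 and 0.18.

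Of 10 tested receptors, 4 had a higher and 6 a lower heterozygous mean (median log2 -0.06). Fzd4, a Frizzled receptor, read 108.4, 139.8 and 135.8 against 118.8, 89.8 and 82.7 (log2 -0.35, limma adjusted p = 0.912). Ryk, a receptor-like kinase that binds Wnt, read 537.5, 478.4 and 508.8 against 610.6, 550.0 and 603.7, without overlap (log2 0.20). A second tested probe set of Ryk had -0.11. Fzd2 had -0.33, with wild-type replicate 3 at 251.1 and the other 5 arrays at 111.9 to 146.2, and its other tested probe sets 0.34 and -0.12.

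Among secreted and membrane inhibitors 3 of 6 tested genes were higher and 3 lower (median log2 -0.09). Sfrp4, a secreted Frizzled-like protein that captures Wnt, read 135.5, 147.3 and 125.7 against 61.4, 122.3 and 103.2 (log2 -0.49, limma adjusted p = 0.899). Apcdd1, a membrane inhibitor, read 151 ± 5.46 and 127 ± 10.2 (SD, n = 3 each; log2 -0.22), and its other tested probe set 0.02. The groups of both did not overlap. Rnf43, which removes Frizzled receptors from the membrane, had -0.20.

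Dishevelled and destruction complex partners were even in direction, with 11 of 21 tested genes higher and 10 lower (median log2 0.02). The lowest unadjusted p of the pathway was that of Gsk3a, the close relative of Gsk3b. It read 742.2, 792.1 and 888.6 in wild-type and 633.9, 561.4 and 627.4 in heterozygous colon, so that every heterozygous array lay below every wild-type array. The log2 difference was -0.40 (SE 0.12, exact permutation p = 0.1, limma unadjusted p = 0.00992, adjusted p = 0.687), against -0.09 for Gsk3b. Dact1, which binds Dishevelled, had -0.22 and Btrc, the ligase subunit that recognises phosphorylated beta-catenin, -0.21, both with overlap.

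Nuclear partners of beta-catenin and Tcf were nearly all measurable, 24 of 25, with 11 higher and 13 lower (median log2 -0.01). Ctnnbip1, a small protein that keeps beta-catenin from Tcf, read 382.6, 323.4 and 471.9 against 310.6, 266.3 and 268.8, without overlap (log2 -0.44, SE 0.16, exact permutation p = 0.1, limma unadjusted p = 0.0206, adjusted p = 0.784). Its other tested probe set had -0.27, with overlap. Sox17, a transcription factor that can bind beta-catenin, had 0.33 and the kinase Nlk -0.29, both with overlap.

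Adherens junction partners of Cdh1 had 8 of 13 tested genes higher and 5 lower (median log2 0.04). Ctnnd1, p120 catenin, which steadies Cdh1 at the membrane, read 242.3, 463.1 and 284.3 against 498.2, 454.5 and 338.6 (log2 0.40, limma adjusted p = 0.913). Nectin2, another adhesion protein, had 0.24, and its other tested probe set -0.06. Ctnna1, which links beta-catenin to actin, read 5273 ± 137 and 5612 ± 379 (SD, n = 3 each; log2 0.09). The groups of these genes overlapped.

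Wnt target genes, the readout of the pathway, had 7 of 17 tested genes higher and 10 lower (median log2 -0.01). Jun, a component of the AP-1 transcription factor, was the target with the smallest p. It read 1076.9, 1311.8 and 1237.8 against 1517.2, 1535.1 and 1409.6, without overlap (log2 0.30, SE 0.12, exact permutation p = 0.1, limma unadjusted p = 0.0292, adjusted p = 0.814). Its other tested probe set was also without overlap (log2 0.24). The homeobox factor Cdx1 had 0.13. The crypt targets Axin2, Lgr5, Ascl2 and Myc are named after their values were seen, as common readouts. Axin2, a feedback inhibitor, read 199.6, 326.4 and 388.8 against 304.1, 227.1 and 254.1 (log2 -0.17). The crypt stem cell receptor Lgr5 (log2 -0.09), the stem cell factor Ascl2 (-0.18) and Myc (0.03) overlapped between the genotypes as well.

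**Figure D4:**
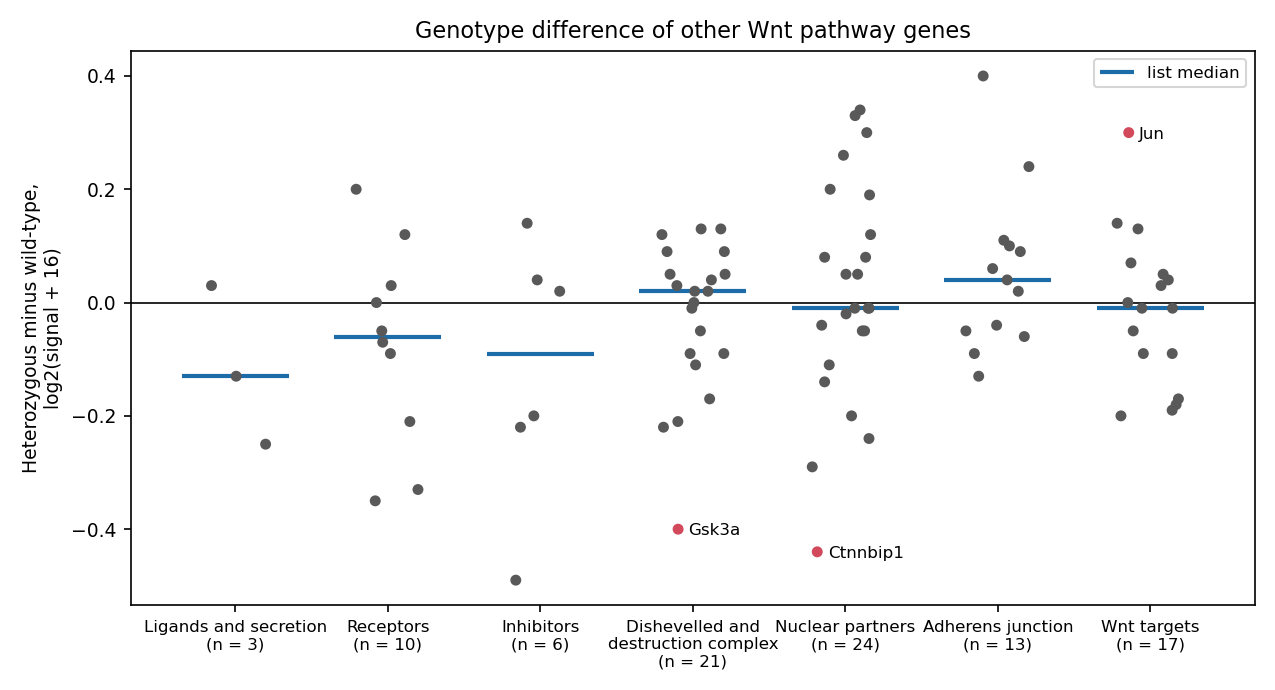
Heterozygous minus wild-type difference in mean log2(signal + 16) for each tested gene of 7 Wnt pathway lists (1 point per gene, with n genes given under each list); horizontal bars are list medians, which lie between -0.13 and 0.04. Coloured points are the 3 genes with an unadjusted p under 0.05: Gsk3a, Ctnnbip1 and Jun.

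Markers of the cells that the gut wall holds were set beside these counts. The epithelial list overlapped between the genotypes (centred mean log2 of -0.14 to 0.08 in wild-type and -0.10 to 0.10 in heterozygous colon), and so were smooth muscle (-0.15 to 0.36 and -0.23 to 0.13) and fibroblast and endothelial markers (-0.14 to 0.12 and -0.08 to 0.06). Enteric neuron and glia markers ran from -0.37 to 0.23 and from -0.10 to 0.29, and B-cell markers, of which 2 of 7 passed the filter, from -0.67 to 0.82 and from -0.37 to 0.46. The T-cell score ran from -0.35 to -0.17 in wild-type and from -0.17 to 0.60 in heterozygous colon, and the proliferation score from -0.46 to 0.30 and from 0.06 to 0.26. All 4 tested T-cell genes and all 11 proliferation genes had a higher heterozygous mean (51.5% of all genes). Genes of 1 list can move together and are not independent replicates. The proliferation score was highest on wild-type replicate 1 (0.30) and lowest on wild-type replicates 2 and 3 (-0.46 and -0.33). The T-cell count is limited by the filter. Cd3d, 1 of the 4, had a wild-type mean of 92.9, under the filter, and passed through its heterozygous mean of 204. Another 7 measured T-cell genes were below the filter and not tested. limma called 0 of the tested T-cell and proliferation genes, and 2 and 3, respectively, had an unadjusted p under 0.05 (5.34% of all genes). Cd3d (limma unadjusted p = 0.0152) is among the 2 T-cell genes, so the filter limits that comparison too. Among proliferation markers, Pcna (log2 0.20, limma adjusted p = 0.917) and Top2a (log2 0.44, limma adjusted p = 0.865) overlapped between the genotypes. Mki67 read 1280.5, 814.3 and 1020.9 against 1364.0, 1290.7 and 1529.9, without overlap (log2 0.44, limma adjusted p = 0.805). The part of T cells and of dividing cells in the values of Ctnnb1 and Jun was not tested.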

How the data were processed

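Total RNA from 6 proximal colons was amplified, labelled with biotin and hybridised, per the labels' protocols. The authors deposited 1 linear intensity per probe set and array; GCOS is named in the submitters' processing notes, without version or settings. The mean of each array without its top and bottom 2% was 500.2, so the deposited intensities had been scaled to a common level, and a change in total RNA cannot be seen. Intensities of different probe sets also depend on their probes and are not compared as amounts of transcript. Arrays limit precision by their number, 3 per genotype.

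Values entered as log2(signal + 16), which understates fold changes of dim genes. Array medians of log2 values differed by 0.09, so no further normalization was done. Of 22690 probe sets, 64 controls were left out, and 13576 at or above the 40th percentile of mean signal were tested. Symbols came from the platform annotation, checked against the GRCm38.p6 gene table (0 altered); 20380 probe sets had 1 symbol, 691 several and 1555 none. The comparison of genotypes used lmFit and eBayes of limma 3.58.1, under R 4.3.3, with a mean-variance trend (two-sided; Benjamini-Hochberg over all tested probe sets, threshold 0.05), with exact two-sided permutation tests for single values. The fit was tested on simulated data. A listed gene is represented by its tested probe set with the highest mean.

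Named are all member probe sets, Mthfd1, up to 3 genes per pathway list by smallest p and up to 3 per marker list by highest mean; Cd3e was named after its values were seen, as were the targets stated in the text. Marker scores average log2 values centred on the mean of the 6 arrays. Members and lists were chosen with earlier results of these data known. P-values measure the spread between these 6 animals. Alternatives covered the scaling, the pseudocount, the filter, the variance model, weights for arrays, a block for the replicate number, the choice of probe set, and leaving out each array.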

Additional observations from a re-analysis of the deposited data

How the results depend on the processing

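Under the 19 alternatives run, limma called 0 member probe sets, and the lowest adjusted p was 0.760 (Ctnnb1 1430533_a_at without wild-type replicate 3). Directions held for 8 of the 14 member probe sets under each alternative that gave them a value. The average over a gene was counted here with its probe set of highest mean. The 8 were Apc 1420956_at, Axin1 1426966_at, Gsk3b, Cdh1, Tcf7l2 1425229_a_at and all 3 of Ctnnb1. For Csnk1a1 and Tcf7l2, the probe set with the highest mean reversed only through that average, which includes other probe sets. Its own values kept their direction. Of 252 results under an alternative, for single probe sets or for averages over a gene, 12 reversed. Among the 12 were averages over all probe sets of a gene, at log2 -0.24 for Csnk1a1, -0.03 for Tcf7l2 and -0.08 for Lrp6. Array weights gave -0.03 for Tcf7l2 1429427_s_at. Leaving out both arrays numbered 2, an alternative chosen after seeing the data, gave -0.03 for Csnk1a1 1424827_a_at, 502 probe sets with an unadjusted p under 0.05, and 7 members without overlap against 29.5% of all. Leaving out each array in turn gave -0.05 to 0.13 for Lrp6, -0.02 to 0.33 for Apc 1450056_at, -0.01 to 0.02 for Csnk1a1 1424827_a_at and -0.15 to 0.13 for Tcf7l2 1429427_s_at. It gave 0 to 38 adjusted and 443 to 1038 unadjusted calls over all probe sets, 8 to 10 members higher, 4 to 6 lower, 2 to 6 without overlap (16.5% to 24.0% over all probe sets) and a member median of 0.01 to 0.13. Over all probe sets the adjusted count was 8 with a robust variance, 4 with array weights and 2 with 1 probe set per gene, the cause not tested. The unadjusted count was 1395 without the filter, 444 with the 60th percentile filter and 443 with 1 probe set per gene, as more or fewer features were tested. Without the filter 8 members were lower; with 1 probe set per gene 5 were higher and 1 did not overlap. With the replicate number as a block the unadjusted count was 925 against 771, and the adjusted count and the member calls stayed at 0. Deviations of same-numbered arrays correlated at -0.12, 0.50 and 0.05, and those of the other pairs across genotypes at -0.48 to 0.42. The labels link the replicates by number only, and whether same-numbered mice shared more was not tested. Secreted inhibitors had no genes left with the 60th percentile filter. The files hold no detection calls, so signal over background is unknown, most of all for the 6 member probe sets below the filter, and 3 arrays per genotype limit what can be seen.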

Other observations

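Several well-known Wnt target genes gave further probe sets with overlapping groups. Ccnd1, a cyclin that drives entry into the cell cycle, read 1351.5, 1022.3 and 1362.4 in wild-type and 1180.5, 1196.5 and 1212.1 in heterozygous colon at 1417420_at (log2 -0.05), and its other tested probe sets had -0.05 and 0.16. Cd44, an adhesion receptor of crypt cells, read 1052.1 to 1415.6 over the 6 arrays at 1423760_at (log2 0.07). Sox9, a transcription factor of crypt progenitors, had log2 differences of 0.04 and -0.05 at its 2 probe sets. Nkd1, a feedback inhibitor that binds Dishevelled, lay below the filter and read 62.0, 69.8 and 57.9 against 83.1, 98.6 and 76.8, without overlap. Of 16 target probe sets below the filter, 3 had groups without overlap, against 12.1% of the 7878 probe sets with 1 symbol below the filter. All 3 had heterozygous higher, a direction seen without overlap in 3.50% of those 7878. That share of 1 direction was chosen after the 3 were seen, so the share for either direction is the fairer comparison. The others were of Vegfa, a vascular growth factor (15.4, 16.5 and 28.6 against 50.7, 37.7 and 83.5), and of Tnfrsf19, a receptor (13.4, 7.8 and 6.6 against 16.8, 32.5 and 24.3). At the brighter, tested probe set 1420909_at Vegfa overlapped between the genotypes (log2 -0.09). The brighter probe sets of Tnfrsf19, also below the filter, overlapped as well (log2 -0.01 and 0.07). The probe sets below the filter were not tested with limma, and the genes of this paragraph were named after their values were seen.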
